A study of Mus musculus with 8 samples.

Results

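The genes described here encode the calcium cycling proteins, ion channels and gap junction protein of the cardiac muscle cell. They are Ryr2, Atp2a2, Pln, Casq2, Slc8a1, Cacna1c, Kcnq1, Kcnh2 and Gja1, 9 of the 37273 genes that the GENCODE annotation of the mouse build mm9 places on the autosomes, X and Y. They are defined by name. The data are the positions of BRG1 over these genes in injured mouse hearts primed with thymosin β4 (Tβ4).

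Adult C57BL/6 mice, 10 to 12 weeks old by the sample labels (the methods of the study give a slightly older range), received intraperitoneal injections of Tβ4 at 12 mg per kg, or of PBS as vehicle, every day for a week. Myocardial infarction (MI) was then produced by tying off the left anterior descending artery for good, injections were continued after surgery, and hearts were taken at day 4. PBS-primed and Tβ4-primed hearts each gave 2 BRG1 ChIP and 2 input libraries, 8 libraries in all, and every heart used for ChIP-seq carried an infarct. The values below come from 1 list deposited by the authors, of regions where BRG1 exceeded the input in Tβ4-primed hearts. Each region has a start and an end but no height, score or p-value, and the duplicates are merged, so that the depth and the spread between replicates are unknown and no test was possible. The PBS-primed hearts were not analysed here, and no value below is a difference between treatments. Chromatin came from whole hearts, in which cardiac muscle cells, fibroblasts, vascular cells and immune cells of the infarct cannot be told apart.

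Contraction of the heart muscle cell begins with calcium entry through the L-type channel, which opens the ryanodine receptor of the sarcoplasmic reticulum and releases stored calcium. The cell relaxes as calcium is pumped back into the store and exported across the surface membrane, while delayed rectifier potassium currents end the action potential and gap junctions pass it to the next cell. BRG1 is the ATPase of SWI/SNF complexes, which move nucleosomes, and a ChIP region marks where BRG1-bound DNA was enriched, not whether a gene was expressed.

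The whole list held 524614 regions with a median length of 600 bp and covered 25.8% of the genome, so that most genes had regions. For each gene, the covered share is the percentage of bases inside regions, over the gene body with 5 kb on each side or over the 5 kb on each side of the annotated start. To allow for gene size, each covered share was set against those of the 200 genes of most similar length, and its rank is given as a percentile, on which 50 is the middle. The 95% Wilson intervals given with these ranks cover counting error over the 200 genes only and treat genes as independent. They carry no replicate error.

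The windows of the 9 genes held 377 regions with a median length of 720 bp. Of these, 305 regions, or 80.9%, lay wholly in introns, 48 regions touched an exon away from the gene start and 3 regions lay over a start, with 11 regions upstream and 10 regions downstream of the genes. All 9 genes had a region in the gene body, compared with 68.4% of all genes. That share pools genes of every length, and longer genes have more room for a region, so it is not a like-length background. A region lay over the annotated start of Ryr2, Atp2a2 and Kcnh2, 3 of 9 genes or 33.3%, beside 24.7% of all genes and 24.2% of protein-coding genes. Within 5 kb of the start, 8 of 9 genes had a region, Casq2 being the exception, beside 89.9% of all genes and 90.5% of protein-coding genes. Counts at starts were therefore close to the background of the list.

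The DNA at the 3 covered starts is shown first, because a BRG1 region lay over the annotated gene start there. Further transcript starts that lay in regions, inside Cacna1c and Kcnh2, are not shown. Each sequence runs from 250 bases before to 50 bases after the annotated start on the gene's own strand, 5′ to 3′, in mm9. Capitals would mark matches to the motifs searched, which on either strand were the C/EBP letters TTGCNNAA, the GATA letters AGATAA, the TEAD letters GGAATG, the AP-1 letters TGANTCA and the MEF2 letters CTAAAAATA.
Ryr2, chr13:12199163-12199462, minus strand: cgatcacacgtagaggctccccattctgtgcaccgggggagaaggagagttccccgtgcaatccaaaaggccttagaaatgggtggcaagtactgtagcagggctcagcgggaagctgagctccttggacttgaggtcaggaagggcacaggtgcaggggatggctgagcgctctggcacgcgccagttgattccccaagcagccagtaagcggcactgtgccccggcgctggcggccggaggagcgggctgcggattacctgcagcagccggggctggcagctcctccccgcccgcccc
Atp2a2, chr5:122952134-122952433, minus strand: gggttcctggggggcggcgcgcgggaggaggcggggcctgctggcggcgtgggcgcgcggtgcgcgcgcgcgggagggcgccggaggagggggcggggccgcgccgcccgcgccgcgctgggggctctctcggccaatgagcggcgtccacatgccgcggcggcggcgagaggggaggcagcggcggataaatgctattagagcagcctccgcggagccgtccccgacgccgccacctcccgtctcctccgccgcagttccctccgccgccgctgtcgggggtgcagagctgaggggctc
Kcnh2, chr5:23857373-23857672, minus strand: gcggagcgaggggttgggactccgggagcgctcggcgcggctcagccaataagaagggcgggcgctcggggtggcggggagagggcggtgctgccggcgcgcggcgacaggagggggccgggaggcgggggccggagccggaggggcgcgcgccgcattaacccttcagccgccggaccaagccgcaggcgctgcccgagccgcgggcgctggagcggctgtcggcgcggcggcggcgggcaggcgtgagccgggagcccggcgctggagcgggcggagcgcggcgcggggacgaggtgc

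None of the 5 motifs matched in these 3 windows, so no base is in capitals. Among 37268 start windows of the same size over all genes, 10.8% held the C/EBP letters, 12.8% the GATA letters, 14.6% the TEAD letters, 7.56% the AP-1 letters and 0.553% the MEF2 letters. The absence of a match says only that these letters do not occur in the window. The start windows of Atp2a2 and Kcnh2 were rich in G and C, at 79.3% and 81.0%, with 48 and 51 CpG dinucleotides. That of Ryr2 held 65.3% G and C and 18 CpG dinucleotides, whereas the median of all genes was 50.3% and 6 CpG dinucleotides.

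The other 6 genes had no region over the start. For these, the central 120 bases of the nearest region inside the window are shown, again on the gene's strand and with motif matches in capitals.
Pln, chr10:53058300-53058419, plus strand: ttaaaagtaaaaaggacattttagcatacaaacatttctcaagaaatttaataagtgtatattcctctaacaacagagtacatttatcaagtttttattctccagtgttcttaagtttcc
Casq2, chr3:101906955-101907074, plus strand: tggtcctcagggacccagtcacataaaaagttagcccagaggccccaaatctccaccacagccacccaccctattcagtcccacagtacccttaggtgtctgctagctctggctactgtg
Slc8a1, chr17:82048095-82048214, minus strand: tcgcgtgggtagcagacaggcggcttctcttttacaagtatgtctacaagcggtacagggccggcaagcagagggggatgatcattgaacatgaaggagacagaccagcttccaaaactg
Cacna1c, chr6:119144265-119144384, minus strand: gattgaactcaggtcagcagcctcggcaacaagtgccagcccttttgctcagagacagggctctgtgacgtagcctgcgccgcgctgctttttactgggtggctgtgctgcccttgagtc
Kcnq1, chr7:150291600-150291719, plus strand: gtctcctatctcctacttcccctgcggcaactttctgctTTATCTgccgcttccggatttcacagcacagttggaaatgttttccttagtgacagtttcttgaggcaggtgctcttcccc
Gja1, chr10:56093820-56093939, plus strand: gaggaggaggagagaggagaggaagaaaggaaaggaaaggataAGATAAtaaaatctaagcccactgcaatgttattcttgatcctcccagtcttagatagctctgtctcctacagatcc

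A GATA match was present at Kcnq1, on the opposite strand from base 40, and at Gja1 from base 44 of the printed stretch. The same letters occurred in the central 120 bases of 8.02% of all regions. All 120 bases at Slc8a1 were coding sequence, and the other 5 stretches lay outside exons. Over the 317 regions of at most 3000 bp in the windows of the 9 genes, 31.2% held the C/EBP letters, beside 29.8% of all regions of the same lengths. For GATA the shares were 37.9% and 38.5%, for TEAD 36.3% and 34.1%, for AP-1 18.9% and 21.0%, and for MEF2 0.946%, or 3 regions, and 2.25%. The base composition of the regions was also close to that of the windows. The difference in G and C content, regions minus window, ran from -1.84 percentage points at Kcnq1 to 2.68 percentage points at Atp2a2. Regions were taken at full length here, and at both of these genes a long region ran out of the window.

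**Figure D1:**
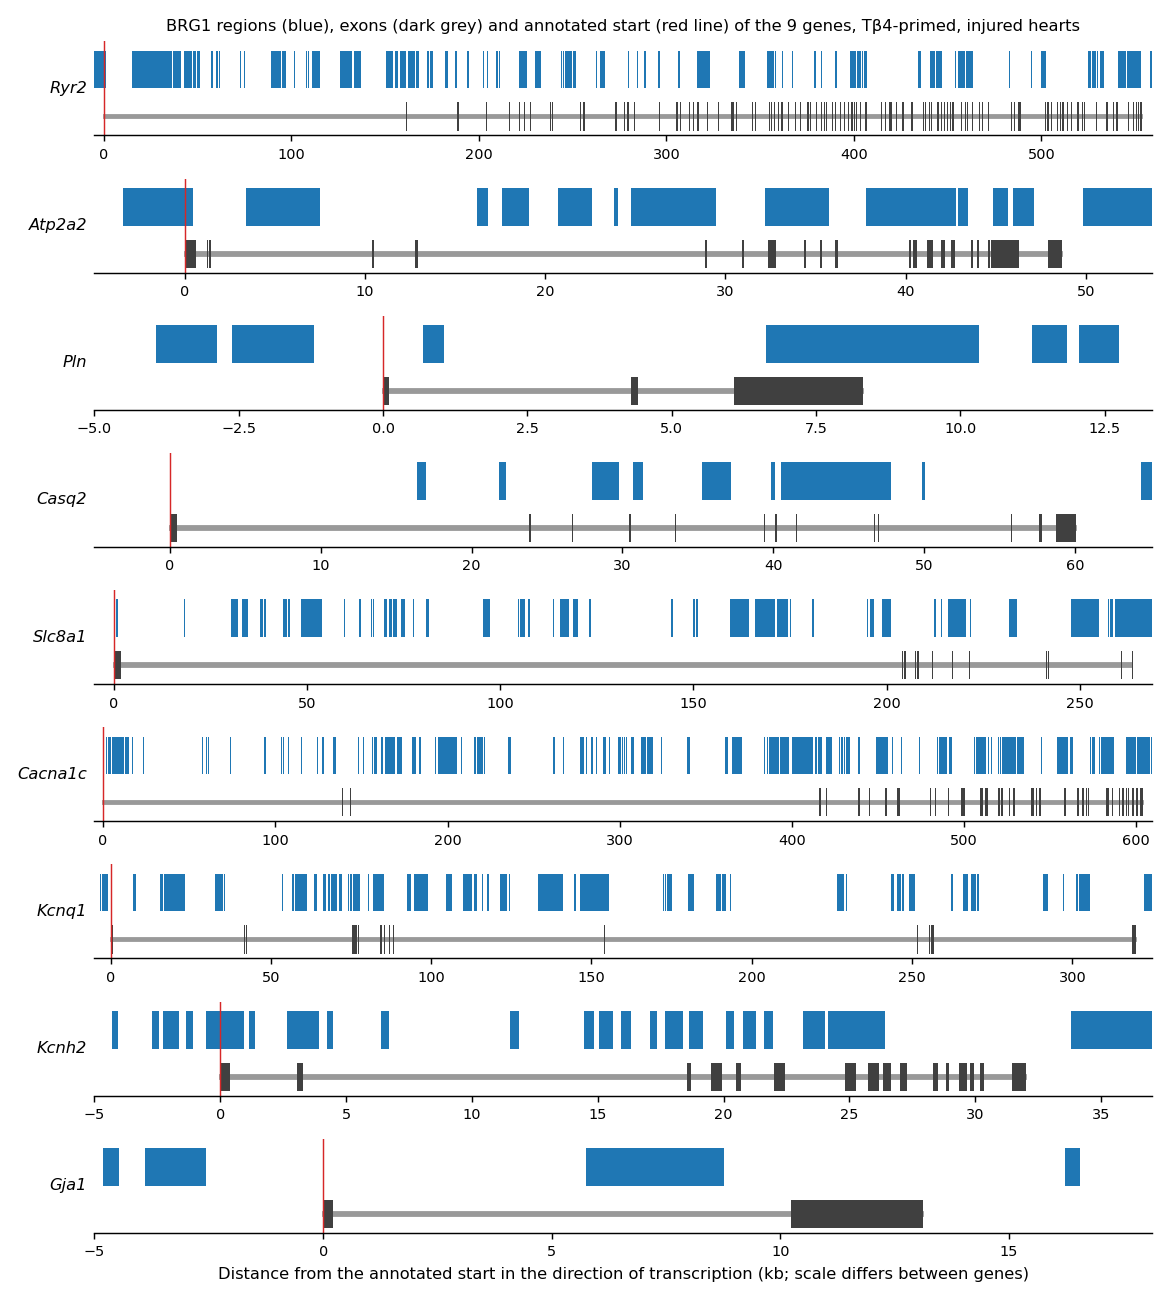
Positions of BRG1 regions (blue), annotated exons (dark grey) and the annotated start (red line) of the 9 genes, with distance from the start in kb on the horizontal axis and a scale of its own for each gene. Regions lie over the starts of Ryr2, Atp2a2 and Kcnh2, and the 5′ part of Casq2 is empty up to 16.4 kb.

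Of the genes of calcium release and storage, Ryr2 had a BRG1 region over its start, whereas Casq2 had none near it. Ryr2 encodes the ryanodine receptor, the channel through which the sarcoplasmic reticulum releases calcium. The gene spans 553843 bp of the minus strand at chr13:11645370-12199212 and had 99 regions in its window, which covered 29.5% of it. A region of 7290 bp, chr13:12198150-12205439, ran from -6.23 to 1.06 kb relative to the start and filled 60.6% of the bases within 5 kb of the start. For this start window Ryr2 stood at the percentile of 90.8 among all genes.

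The longest region of Ryr2, and of all 9 genes, lay in intron 1, between 15.1 and 36.4 kb from the start, at chr13:12162780-12184139. It measured 21360 bp, a length that only 41 of the 524614 regions reached. Intron 1, 160.4 kb long, was covered by 41.8% with 32 regions. When the gene was divided into 10 equal parts, the first had 61.6% of its bases inside regions, the third 47.6% and the last 37.4%, whereas the second had 19.7% and the sixth, the lowest, 15.4%. The 100 kb on either side of the gene were covered by 17.0%. Coverage was thus highest in the first part of Ryr2 but uneven along the gene, and over the whole window it stood at the percentile of 66 (59.2 to 72.2). By the number of regions per kb it stood lower, at 26.5, since its regions were few but long, and exons and introns were covered alike, by 29.8% and 28.8%.

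Casq2 encodes calsequestrin, the protein that binds calcium inside the store. It spans 60100 bp of the plus strand at chr3:101890338-101950437 and had 9 regions in its window, a covered share of 19.9%. No region lay within 15.4 kb of its start on either side, and inside the gene the first region, of 630 bp, began at 16.4 kb in intron 1. Its start window, listed at 0, stood at the percentile of 5.05 among all genes. Most of its covered bases lay in the 3′ part of the gene, where a region of 7260 bp at chr3:101930880-101938139 made up 52.0% of them. Exons of Casq2 were covered by 4.02% and introns by 22.9%. The percentile of the whole window was 26 (20.4 to 32.5), and 5 by regions per kb, and it was 14 when the genes used for ranking were matched on GC content as well. Both ranks placed Casq2 last among the 9 genes, although the 100 kb on either side of it were covered by 31.7%.

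The calcium uptake genes Atp2a2 and Pln had large covered shares. Atp2a2 encodes SERCA2, the pump that returns calcium to the sarcoplasmic reticulum. On the minus strand at chr5:122903531-122952183, 48653 bp long, it had 13 regions that covered 54.3% of its window, the highest share of the 9 genes. Only 5 of the 200 genes nearest in length reached this share, a percentile of 97.5 (94.3 to 98.9). A region of 3870 bp, chr5:122951730-122955599, extended from -3.42 to 0.453 kb relative to the start, and 54.5% of the start window was covered.

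Regions of Atp2a2 were long, with a median of 1920 bp. The longest wholly inside the gene, of 5010 bp, lay between 37.8 and 42.8 kb from the start and held 1111 exonic bases. Exons were covered by 61.5% and introns by 49.3%, whereas the 100 kb on either side of the gene had 22.8%. The number of regions was ordinary for the length, with a percentile of 51.5 by regions per kb. The high rank of Atp2a2 therefore rested on the length of its regions and not on their number. A U6 small nuclear RNA gene lies within the window.

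Pln encodes phospholamban, the small membrane protein that inhibits the SERCA2 pump. Its 8314 bp lie on the plus strand at chr10:53057492-53065805. Of its 6 regions, 2 lay upstream of the start, 1 in intron 1, 1 over the last exon and 2 downstream of the gene. The region nearest to the start was 360 bp long and began 0.688 kb inside the gene. A region of 3690 bp, chr10:53064120-53067809, covered 1686 bases of the last exon, which encodes the protein, and ran past the end of the gene. This region gave 47.3% of all covered bases of the window, and the last 2 of 10 equal parts of the gene were covered completely.

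The covered share of the Pln window was 42.6%, a percentile of 81.5 (75.5 to 86.3), but the share of the gene body alone was 24.6%, at the percentile of 56.5. The flanks thus carried much of its rank. Exons were covered by 68.0% and introns by 6.17%. The predicted genes Gm9766 and Gm10942 overlap the window, and regions cannot be assigned between them and Pln.

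Calcium entry and export were represented by Cacna1c and Slc8a1, both long genes without a region over the annotated start. Cacna1c encodes the pore of the L-type calcium channel. At 603936 bp, on the minus strand at chr6:118542314-119146249, it is the longest of the 9 genes and had the most regions, 118. They covered 28.9% of the window, a percentile of 59.5 (52.6 to 66.1), and 51.5 by regions per kb. The nearest region began 1.79 kb inside the gene and 15.9% of the start window was covered. Of the 4 annotated transcript starts, 2 lay in regions, at 415.9 and 438.3 kb from the gene start.

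Coverage of Cacna1c was uneven along the gene and highest towards the 3′ end. The second of 10 equal parts was covered by 4.97% and the seventh by 60.1%, and the longest stretch without a region, of 34.2 kb, began 23.4 kb from the start. Intron 1, 138.6 kb long, had 12.6% of its bases inside regions, compared with 41.8% for intron 1 of Ryr2. Exons of Cacna1c, which lie mostly in the 3′ part, were covered by 57.5% and introns by 28.2%. The exonic share stood at the percentile of 90.5 among genes of like length with introns. Of the 10 regions of at least 5000 bp in its window, 6 touched an exon, and the longest, of 10920 bp in intron 3 between 194.6 and 205.5 kb, touched none. The window also holds part of Dcp1b and a U6 gene.

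Slc8a1 encodes the sodium-calcium exchanger NCX1, which exports calcium during relaxation. The gene, 263589 bp of the minus strand at chr17:81785359-82048947, had 47 regions and a covered share of 25.5%, the percentile of 32.5 (26.4 to 39.3), or 14 by regions per kb. Its start window held a single region, of 570 bp, from 0.508 to 1.08 kb inside the gene over coding sequence, so that 5.70% of it was covered. The first of 10 equal parts had 3.19% of its bases inside regions, the lowest of the gene. The longest region, of 9630 bp at chr17:81780180-81789809, lay at the opposite end, over the last exon and beyond the end of the gene. The RefSeq table places its start for Slc8a1 further upstream, at -88.8 kb, where the nearest region was 6.62 kb away.

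**Figure D2:**
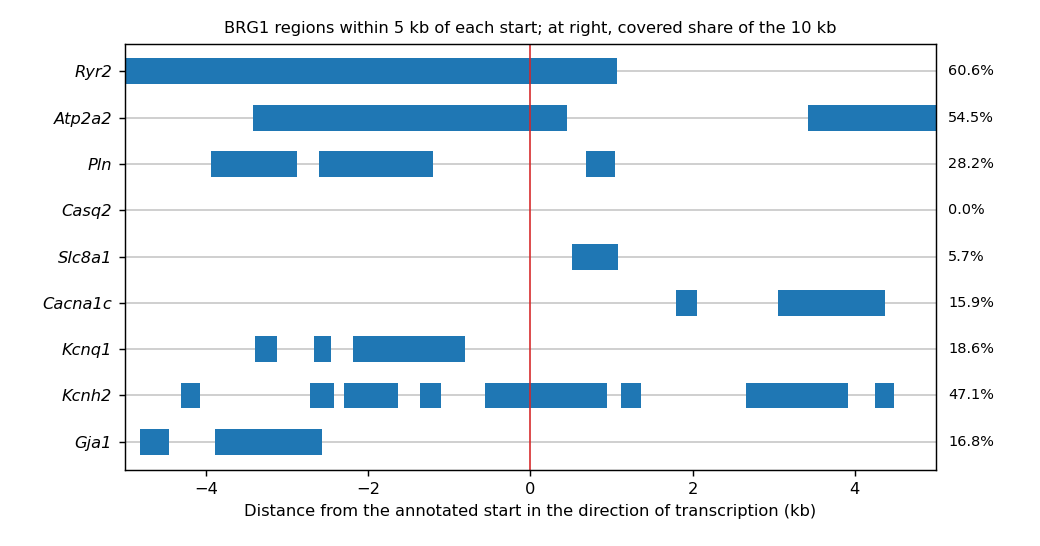
BRG1 regions (blue bars) within 5 kb of the annotated start of each gene, with distance from the start in kb on the horizontal axis and the covered share of the window at the right. Ryr2, Atp2a2 and Kcnh2 have a bar across the start and shares of 60.6%, 54.5% and 47.1%, the other genes have 28.2% or less, and Casq2 has no bar.

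Of the delayed rectifier genes, Kcnh2 lay above the middle for its length and Kcnq1 below it, although Kcnq1 stood at 52 when the genes used for ranking were matched on GC content as well. Kcnh2 encodes the pore of the rapid delayed rectifier potassium channel (hERG). It lies on the minus strand at chr5:23825407-23857422, 32016 bp long, and had 22 regions. Regions per kb were higher than in any of the 200 genes nearest in length. The covered share was 37.7%, a percentile of 81.5 (75.5 to 86.3), with regions that were short, at a median of 405 bp.

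A region of 1500 bp, chr5:23856480-23857979, lay over the Kcnh2 start, from -0.557 to 0.942 kb. With it, 8 regions lay within 5 kb of the start and covered 47.1% of this window. Of the 5 annotated transcript starts, 3 lay in regions, and a region ended 41 bp from a further start, 22.0 kb inside the gene, which is the start that the RefSeq table gives. No region was present in the last of the 10 equal parts. The count depended on how regions were delimited: joining neighbours up to 500 bp apart left 11 regions, and leaving out those under 600 bp left 7 regions. In the latter case the percentile by covered share was 55.5. The window overlaps the predicted gene Gm15589.

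Kcnq1 encodes the pore of the slow delayed rectifier potassium channel. The gene covers 319797 bp of the plus strand at chr7:150293159-150612955 and had 59 regions, 54 of them in the gene body. The covered share of 26.5% ranked at 38 (31.6 to 44.9), or 31.5 by regions per kb. No region touched any of its 3 annotated transcript starts. The nearest, of 1380 bp, lay upstream, from -2.19 to -0.810 kb, and 18.6% of the start window was covered. The longest region within the window, of 9000 bp at chr7:150439620-150448619, lay 146.5 to 155.5 kb from the start and held 121 exonic bases. A stretch of 33.1 kb without a region began 193.4 kb from the start, and the seventh of 10 equal parts was covered by 1.04%. The 100 kb on either side, with 37.5%, were covered more than the gene.

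Gja1 encodes connexin 43, the main gap junction protein of the ventricle. Its 13120 bp lie on the plus strand at chr10:56097106-56110225, and its window had 4 regions. The gene body held only 1 region, of 3030 bp in the single intron, chr10:56102850-56105879, which gave 60.1% of the covered bases. No exonic base lay inside a region, neither in the first exon nor in the last, which holds the coding sequence. The nearest region to the start lay upstream, from -3.89 to -2.57 kb, and 16.8% of the start window was covered. The window share of 21.8% ranked at 43 (36.3 to 49.9), or 23.5 by regions per kb and 26.5 with flanks of 10 kb.

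**Figure D3:**
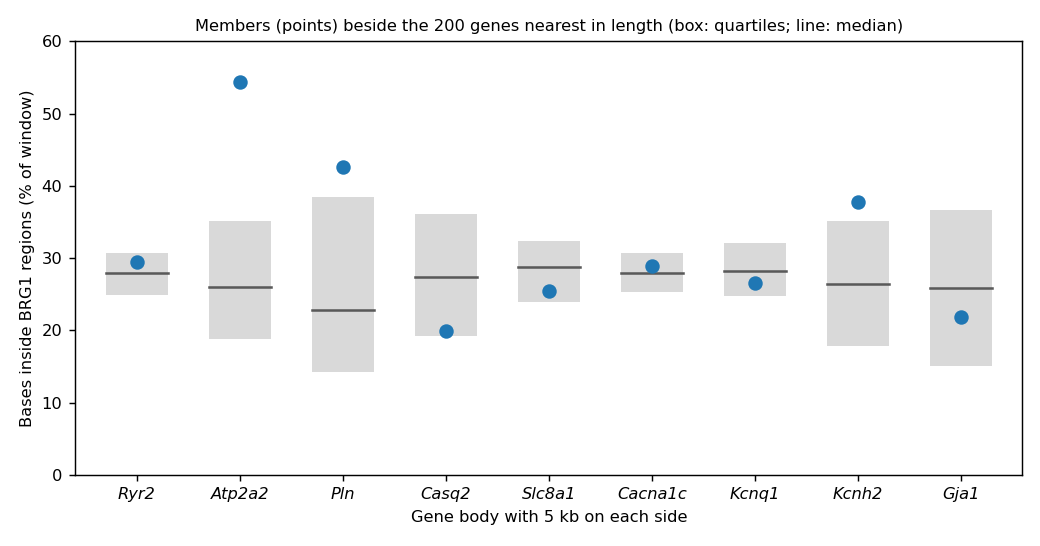
Covered share of the gene body with 5 kb on each side (points, percent of bases) for the 9 genes beside the quartiles (grey boxes) and median (lines) of the 200 genes nearest to each in length. Atp2a2, at 54.3%, Pln, at 42.6%, and Kcnh2, at 37.7%, lie above their boxes, and the other 6 genes lie within them.

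As a group the 9 genes were placed near the middle of genes of their length. The median covered share was 28.9%, from 19.9% at Casq2 to 54.3% at Atp2a2, beside 24.0% for all genes. Covered share was above the median of like-length genes for 5 genes, Atp2a2, Pln, Kcnh2, Ryr2 and Cacna1c, and below it for Gja1, Kcnq1, Slc8a1 and Casq2. Atp2a2, Pln and Kcnh2 exceeded the upper quartile and no gene lay below the lower quartile, and the median percentile was 59.5. Leaving out regions under 600 bp lowered the counts of the long genes, to 60 regions at Ryr2, 58 regions at Cacna1c and 25 regions at Slc8a1. By regions per kb, 4 of 9 genes were above the median of like-length genes and the median percentile was 31.5. The ranks of Pln and Kcnh2 were equal by covered share, and the intervals of the neighbours Ryr2 and Cacna1c, and those of Gja1, Kcnq1 and Slc8a1, overlapped, as did the intervals of Slc8a1 and Casq2.

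Ranks at the start followed another order. The covered share of the start window was highest at Ryr2, Atp2a2 and Kcnh2, then Pln at 28.2%, Kcnq1, Gja1, Cacna1c and Slc8a1, with Casq2 at 0. The median was 18.6%, beside 21.5% for all genes. Exons were covered by a larger share than introns in 6 of 9 genes, whereas this held for 37.0% of the 24813 genes with introns, and Casq2, Kcnq1 and Gja1 were the exceptions. For 2 of the 6 genes the shares were nearly equal, at 29.8% and 28.8% for Ryr2 and 33.9% and 33.0% for Kcnh2. Among the genes of like length the share was between 36.5% and 52.0%. Regions of at least 5000 bp numbered 25 of 377, or 6.63%, beside 4.19% of all regions, and 10 of the 25 lay at Cacna1c. Pln, Kcnh2 and Gja1 had none. Any region touching a window was counted at its full length, which favours long regions, so these shares are not directly comparable.

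**Figure D4:**
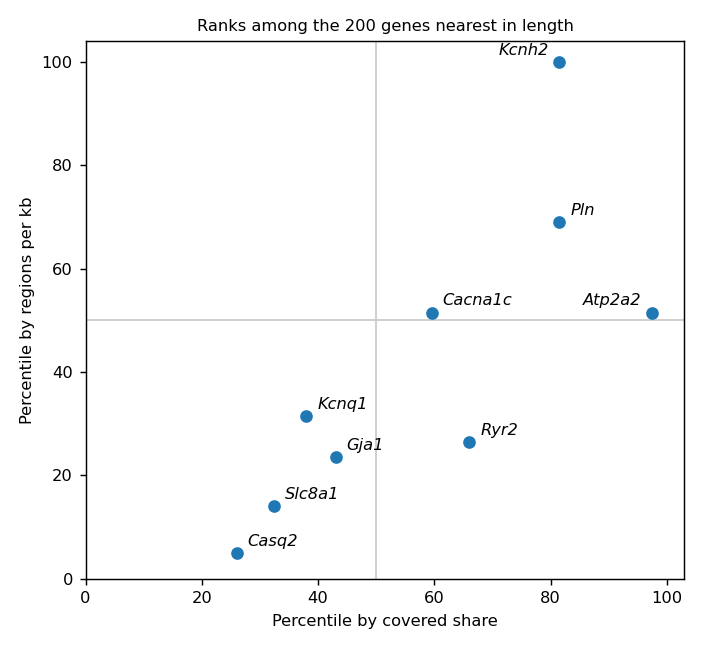
Percentile of each gene among the 200 genes nearest in length by covered share (horizontal axis) and by regions per kb (vertical axis), with grey lines at 50. Atp2a2, at 97.5 and 51.5, is highest by covered share, Kcnh2, at 81.5 and 100, is highest by regions per kb, and Casq2 is lowest on both axes.

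Other genes of excitation and calcium cycling were taken from a list of 59 genes. Of these, 30 were above and 29 below the median of like-length genes, with a median percentile of 50.5 and a median covered share of 26.1%. A region lay over the start of 15 of the 59 genes, or 25.4%, beside 24.7% of all genes. Among the 18 genes of calcium release and uptake in the sarcoplasmic reticulum, 4 were above the median of their length, 10 lay below the lower quartile and the median percentile was 22.5. By covered share, Ryr2 at 66, Pln at 81.5 and Atp2a2 at 97.5 lay above this median, and Casq2 at 26 lay close to it. By regions per kb the median percentile of the 18 genes was 37, and Ryr2 at 26.5 and Casq2 at 5 lay below it, with Atp2a2 at 51.5 and Pln at 69 above it.

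Potassium channel genes stood higher by covered share, with 11 of 15 above the median of their length and a median percentile of 68.5. Their median percentile was 52 by regions per kb. Starts of 6 of the 15 genes, or 40%, had a region over them, beside 24.7% of all genes. For calcium entry and export at the surface membrane, 5 of 12 genes were above the median of their length, with a median percentile of 46. The corresponding counts were 5 of 6 sodium and pacemaker channel genes and 5 of 8 genes of gap junctions and the intercalated disc, with median percentiles of 69.8 and 60.8. By regions per kb the median percentiles of these 3 groups were 56.8, 56 and 37.8. The highest genes of the list were Pkp2, encoding the desmosomal protein plakophilin 2, at 99.5, and Kcnj2, which encodes the inward rectifier channel Kir2.1, at 96.5. Cacnb2 and Cacna1g, encoding a subunit of the L-type channel and a T-type calcium channel, followed at 94.5 each. The lowest were Jph2, whose product junctophilin 2 ties the surface membrane to the store, at 2, and Gja4, encoding connexin 37, at 3.75. Cdh2, encoding N-cadherin, had a percentile of 4.

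**Figure D5:**
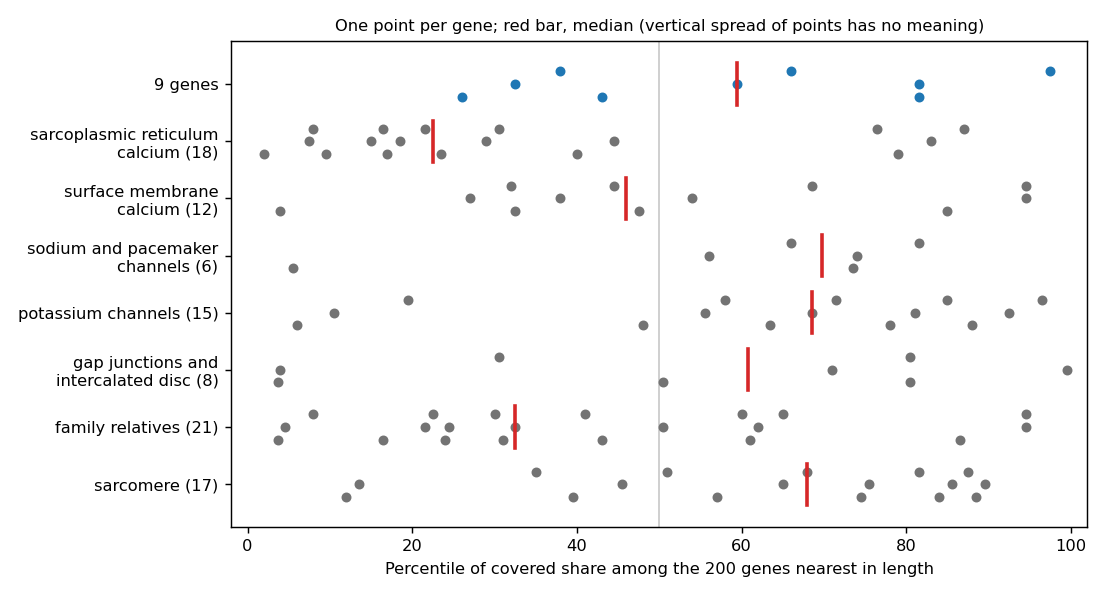
Percentile of covered share among the 200 genes nearest in length for the 9 genes (blue) and for comparison lists (grey), 1 point per annotated gene entry with the median as a red bar. The 9 genes have a median of 59.5 and the genes of sarcoplasmic reticulum calcium a median of 22.5, while the points of every list spread over much of the axis.

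Family relatives of the 9 genes, most of which serve other tissues, had lower ranks by covered share but not by regions per kb, where the median percentiles were 32 for the relatives and 31.5 for the 9 genes. By covered share, of 21 relatives, 8 were above and 13 below the median of like-length genes, with a median percentile of 32.5. Of the 21, 7 had a region over the start, or 33.3%, beside 24.7% of all genes. Ryr1, the skeletal muscle receptor, and Ryr3 stood at 62 and 41 beside 66 for Ryr2. Atp2a1 and Atp2a3 stood at 30 and 31, far from the 97.5 of Atp2a2, and Sln, encoding sarcolipin, at 16.5 beside 81.5 for Pln. By regions per kb, however, Atp2a3 at 72.5 stood above Atp2a2 at 51.5, and Ryr1 at 43 above Ryr2 at 26.5. Ryr3 at 20.5, Atp2a1 at 32 and Sln at 23 were below Ryr2, Atp2a2 and Pln by this measure too. Casq1, the skeletal muscle calsequestrin, stood at 86.5 beside 26 for Casq2, but it had a single region and stood at 3.5 by regions per kb, beside 5 for Casq2. For the exchangers, Slc8a2 was at 24 and Slc8a3 at 60, beside 32.5 for Slc8a1.

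Among the relatives of the channels, Cacna1s, Cacna1d and Cacna1f stood at 4.5, 32.5 and 43, all below the 59.5 of Cacna1c. The neuronal genes Kcnq3 and Kcnq5 were at 24.5 and 8, below the 38 of Kcnq1. Both had a region over the start, which Kcnq1 lacked. Kcnh6 and Kcnh7, at 61 and 65, were below the 81.5 of Kcnh2 and also had a region over the start. The connexin genes Gja3, Gja4 and Gja5 were at 21.5, 3.75 and 50.5, beside 43 for Gja1. Sln, Cacna1d, Gja4 and Gja5 belong to the list of 59 genes as well.

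For comparison with another set of genes of the heart muscle cell, a sarcomere list of 17 annotated entries was used. Of these, 12 were above the median of like-length genes. The median percentile was 68, or 65 by regions per kb, and the median covered share was 30.6%. Tnnc1 is listed in both a longer and a shorter annotated form, at percentiles of 84 and 45.5. A region lay over the start of 3 entries, or 17.6%, beside 24.7% of all genes. The 9 genes, with 5 above the median and a median percentile of 59.5, were not set against these lists by a test, since members of a list are not replicates.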

How the data were processed

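The authors made BRG1 ChIP and input libraries from duplicate PBS-primed and Tβ4-primed, injured hearts. Per the methods and the submitters' processing notes, reads were mapped with Bowtie 1.0.0 to mm9 and regions were called with MACS2 2.0.10. The methods name its bdgcomp function, whereas the list's name has the form of an output of a comparison of conditions, and how duplicates were combined is not given in the sources used here. The deposited list holds start and end positions in bp, without counts or scores.

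Regions were counted with at least 1 bp of overlap, with positions from 1, against the mm9 genome and its GENCODE annotation on 19 autosomes, X and Y, with Python 3.11.15, numpy 2.4.6, pandas 2.3.3, scipy 1.17.1, pysam 0.24.0 and matplotlib 3.10.9. Counting was tested on simulated regions of chromosome 19, where it equalled bedtools 2.31.1 for 957 of 957 genes. RefSeq starts came from 9 promoter sequences of the members (table of GRCm38.p6), each placed once in mm9 by exact match, with none for Atp2a2 and Kcnq1.

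The 9 genes and the comparison lists were chosen with earlier results of these data known. Named were all 9 genes, the 3 highest and 3 lowest of the list of 59 genes (ties included) and every relative, apart from a few genes of these lists that count in the totals but are not reported here by name. Alternatives covered joined regions, minimum length, flanks, the genes used for ranking and the measure. A stricter score could not be applied, since the list holds none, and length stood in for it. RefSeq starts, the exon and intron shares and the minimum of 5000 bp were chosen after seeing the data.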

Additional observations from a re-analysis of the deposited data

How the results depend on the processing

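The median covered share of the 9 genes, 28.9%, was 30.5% with regions within 500 bp joined, 25.02% with regions of at least 600 bp only, 28.8% and 28.3% with flanks of 2 and 10 kb, and 26.1% in the gene body alone. Their median percentile was 31.5 by regions per kb in place of the covered share. The count of genes above the median of like-length genes was 5 under 9 of 11 alternatives, 6 with matching on GC content, where Kcnq1 joined them, and 4 by regions per kb. With RefSeq starts, an alternative chosen after seeing the data that covers 7 of the 9 genes, 2 genes had a region over a start, Ryr2 and Cacna1c, the latter at a start inside the gene, so that this count is not directly comparable with 3 of 9. The other alternatives gave 3 or 4 genes. Within 5 kb of the start, the alternatives that kept this window gave 7 or 8 genes with a region. Windows of 1, 2 and 10 kb on each side gave 6, 7 and 8 genes. Of 99 single-gene percentiles under the alternatives, 68 stayed within the interval of their rank, 10 rose out of it and 21 fell out of it, with the widest range at Atp2a2 (51.5 to 100). Of 63 region counts, 11 moved by over 1.5 times, all downwards.

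No paired analysis was possible because the list does not separate the duplicates. One list without scores, replicates or PBS-primed hearts limits every value to a description. Depth is unknown, so that a place without a region cannot be called free of BRG1.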
